A study of Mus musculus with 8 samples.

Results

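The Hedgehog ligand, receptor and Gli genes are 9 of the 33971 genes counted in whole embryonic mouse brains. They were taken by symbol from the complete count table: *Shh*, *Cdon*, *Boc*, *Ptch1*, *Hhip*, *Smo*, *Gli1*, *Gli2* and *Gli3*. All 9 had a row, and all 9 passed the filter on low counts that left 19367 genes for testing. Poly(A) RNA was sequenced from whole brains of wild-type (WT) embryos collected in mid-gestation (E14.5). In 1 group the mothers, WT mice, ate a choline-deficient diet (CDD) from the day of mating until collection, and in the other the mothers, whose genotype is not given in the sources used here, ate normal chow (normal diet, ND), with 4 brains for each diet. The comparison asks which transcripts of the fetal brain differ when the mother's diet lacks choline. How many dams or litters the brains came from, and the mouse strain, are not given in the sources used here, so p-values measure the spread between these brains, and brains of 1 litter may share it.

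Hedgehog signaling starts when a secreted ligand, in the ventral neural tube mainly Sonic hedgehog, binds the receptor Patched 1 on the receiving cell. Without ligand, Patched 1 holds the membrane protein Smoothened in check and Gli2 and Gli3 are processed to repressors. With ligand, Smoothened becomes active at the primary cilium and the Gli proteins switch on target genes. *Gli1*, *Ptch1* and *Hhip* are themselves such targets, which is why their transcript levels are widely used as a readout of the pathway, and Ptch1 and Hhip feed back on it by binding the ligand. In the developing brain the pathway patterns ventral cell types and drives the division of progenitors. Here these 3 genes are called the targets, and the ligand gene *Shh*, the coreceptor genes *Cdon* and *Boc*, the transducer gene *Smo*, and *Gli2* and *Gli3* are called the components.

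All 6 components rose in CDD brains, by 1.16-fold (*Boc*) to 1.36-fold (*Gli3*), and 0 of the 3 targets passed the same test. Across all genes tested, 1710 (8.83%) were called, of which 822 (4.24%) rose and 888 (4.59%) fell in CDD brains (edgeR's quasi-likelihood test, Benjamini-Hochberg adjusted p under 0.05). The median log2 fold change (CDD over ND) was 0.36 over the components, -0.08 over the targets and -0.004 over all genes. In 7 of the 9 genes all CDD brains exceeded all ND brains, an arrangement found in 1481 genes (7.65%) of those tested. *Gli1* and *Hhip* were the 2 exceptions. The pathway had been named for these same brains earlier, so the counts over the 9 genes are a description of them and not independent evidence of a direction.

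The upstream sequences of both feedback targets and of the component with the largest change are printed here. RefSeq promoters (GRCm38.p6, 250 bases before to 50 bases after an annotated start) were found for 6 of the 9 genes, *Ptch1*, *Hhip*, *Gli3*, *Gli2*, *Smo* and *Cdon*. Each of them had 1 window, and other starts of the same gene were not read. Whether a window lies at the outermost start of its gene was not checked. The sequences below are of chr13:63565686-63565985 (*Ptch1*, minus strand), chr8:80057959-80058258 (*Hhip*, minus strand) and chr13:15463473-15463772 (*Gli3*, plus strand), written 5′ to 3′ on the strand of the gene, and capitals mark GC boxes, the letters GGGCGG or their reverse complement CCGCCC.
Ptch1: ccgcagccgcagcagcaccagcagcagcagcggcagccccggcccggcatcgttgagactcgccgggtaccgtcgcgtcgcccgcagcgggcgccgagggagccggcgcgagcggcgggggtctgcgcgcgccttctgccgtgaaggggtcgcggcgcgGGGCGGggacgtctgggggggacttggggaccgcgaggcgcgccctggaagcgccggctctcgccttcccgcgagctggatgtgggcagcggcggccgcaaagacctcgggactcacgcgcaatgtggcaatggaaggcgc
Hhip: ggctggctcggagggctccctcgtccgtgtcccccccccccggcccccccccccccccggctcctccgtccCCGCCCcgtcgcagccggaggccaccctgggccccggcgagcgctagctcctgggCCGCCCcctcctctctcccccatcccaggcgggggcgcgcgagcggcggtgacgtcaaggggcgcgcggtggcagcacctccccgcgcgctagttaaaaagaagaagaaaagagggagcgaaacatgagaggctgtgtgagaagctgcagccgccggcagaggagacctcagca
Gli3: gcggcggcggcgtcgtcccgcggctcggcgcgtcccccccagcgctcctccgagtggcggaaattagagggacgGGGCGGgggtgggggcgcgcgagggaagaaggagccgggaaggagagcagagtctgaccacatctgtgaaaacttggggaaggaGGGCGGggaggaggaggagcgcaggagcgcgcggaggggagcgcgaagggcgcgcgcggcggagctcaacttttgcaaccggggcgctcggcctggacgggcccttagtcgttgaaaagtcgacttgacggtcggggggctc
The 3 windows were rich in G and C, with 76.3%, 73.7% and 71.0% of bases for *Ptch1*, *Hhip* and *Gli3* and 47, 30 and 39 CpG dinucleotides. The median over all 32851 RefSeq promoters of this length was 52.7% and 7. Among the windows not printed, *Smo* had 67.7% and 17, *Gli2* 67.3% and 28, and *Cdon* 44.7% and 3, below both medians. At least 1 GC box lay in the windows of *Ptch1*, *Hhip*, *Gli3* and *Gli2*, and in 35.7% of all promoters. The letters GACCACCCA, a consensus for GLI binding, and their reverse complement TGGGTGGTC were in 0 of the 6 windows, also when 1 mismatch was allowed, against 0.253% of all promoters for exact matches and 6.74% with at most 1 mismatch. A TATA box (TATAAA, both strands) was in 0 of the 6 windows and in 13.6% of all promoters. These matches describe the letters in 300 bases and say nothing about binding of a factor there or elsewhere at the gene.

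The libraries held 31770217 to 43121170 counts in genes. Counts of 2 brains differed by more than counting error within a diet as well as between diets (chi-square per degree of freedom 3.76 to 22.5 and 4.01 to 30.8), so no 2 libraries were treated as 1. Defining genes of neural progenitors, dividing cells and postmitotic neurons were above 0 in every brain. CDD replicate 2 stood apart: 10 Hox genes of caudal hindbrain and spinal cord summed to 109.5 CPM (counts scaled to a common library size) there, against 0 to 0.453 CPM in the other CDD and 0.029 to 0.176 CPM in the ND brains, with *Hoxa5*, *Hoxb5*, *Hoxb6* and *Hoxb8* at 0 in the 7 other brains. The summed level of 8 genes listed as markers of the floor plate, the ventral midline that makes Shh, was also highest in that brain. It was 273 CPM there, against 189 to 223 CPM in the other CDD and 180 to 190 CPM in the ND brains. Without CDD replicate 2, 5 of the 6 components were called, *Shh* being the one lost, and 0 of the 3 targets.

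**Figure D1:**
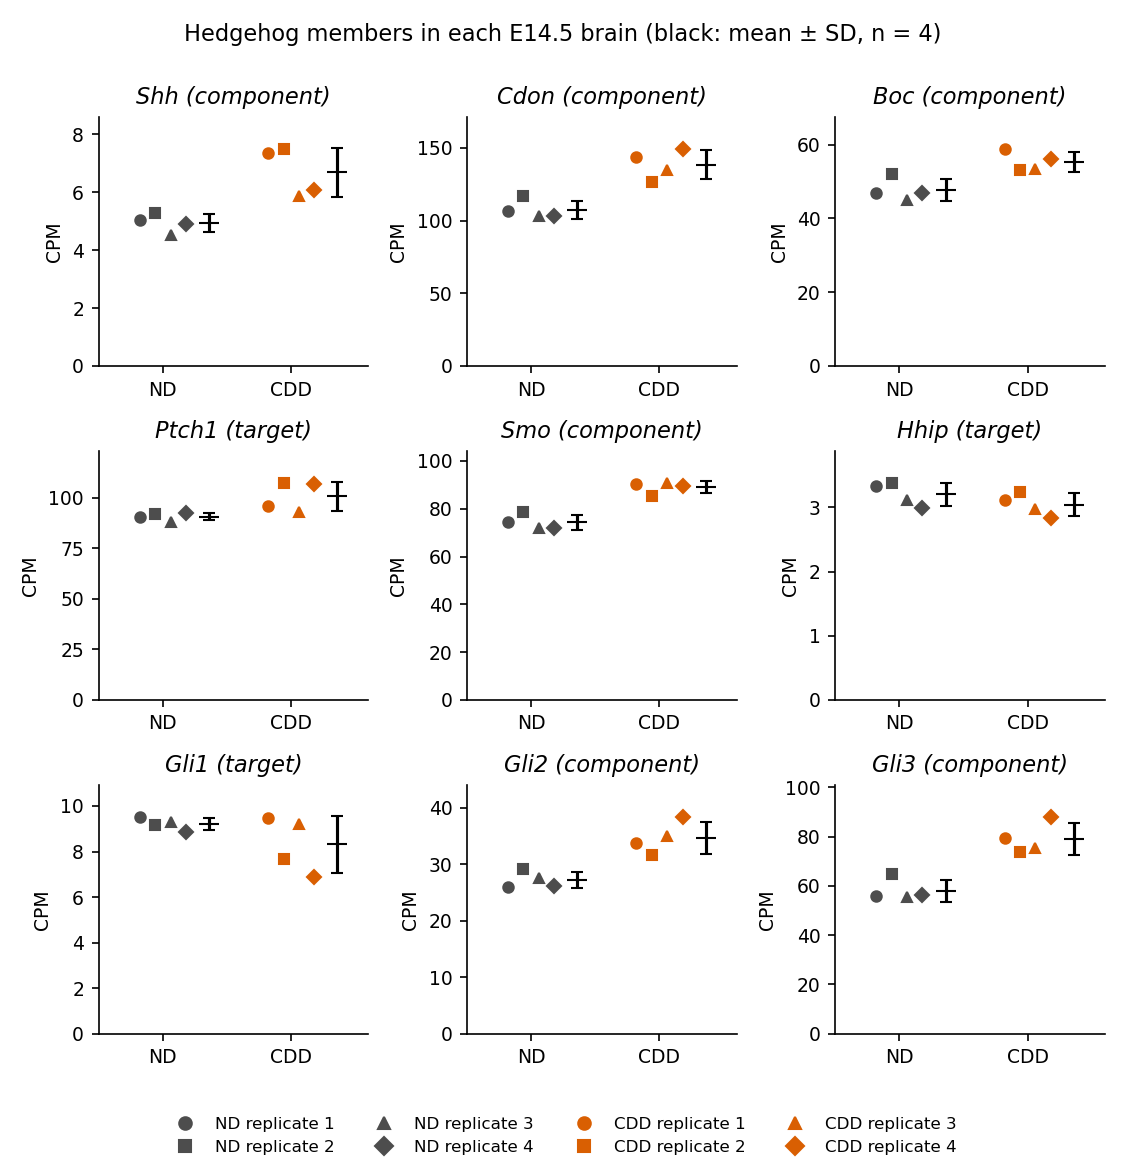
CPM of the 9 Hedgehog genes in each of 4 CDD and 4 ND brains, 1 panel per gene, each with its own axis, with the mean and SD of each diet. Every CDD point lies above every ND point in 7 panels, while the points overlap for *Gli1* and *Hhip*.

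*Shh*, which encodes the ligand, was at 7.34, 7.48, 5.85 and 6.06 CPM in CDD replicates 1 to 4 and at 5.03, 5.28, 4.51 and 4.90 CPM in the ND brains (counts scaled by library size and TMM factors in edgeR). The lowest CDD brain lay above the highest ND brain. *Shh* (ENSMUSG00000002633, chromosome 5, 28661813 to 28672254 in the authors' coordinates) was 1.35-fold higher in CDD brains, with a mean of 6.68 ± 0.842 CPM (SD, n = 4) against 4.93 ± 0.323 CPM (SD, n = 4). Its log2 fold change was 0.44 (standard error, SE, 0.11, 95% confidence interval 0.20 to 0.67, adjusted p = 0.0223 in edgeR's test). The call rested on single brains, since it was lost without CDD replicate 1 (adjusted p = 0.0614 in edgeR's test), CDD replicate 2 (0.0612), ND replicate 1 (0.0584), ND replicate 3 (0.0950) or ND replicate 4 (0.0686), with log2 fold changes of 0.38 to 0.50 over all 8 omissions. Only 156 to 258 counts per library lay behind these values. The 8 genes listed as floor plate markers all had a log2 fold change above 0 in the same brains (median 0.33), as had 9507 of all 19367 genes tested. Of the 8 markers, 1 was called (12.5%, against 8.83% of all genes tested). Neither the cells that made these transcripts nor their part in the change of *Shh* was tested.

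Both coreceptor genes, whose products bind the ligand and help present it to Patched 1, were higher in CDD brains. *Cdon* was at 143, 126, 135 and 149 CPM in CDD replicates 1 to 4 and at 107, 117, 103 and 103 CPM in the ND brains. ND replicate 2 was the ND brain nearest to the CDD brains, all of which lay above it. *Cdon* (ENSMUSG00000038119, chromosome 9, 35332424 to 35418948) rose 1.29-fold, from 107 ± 6.43 to 138 ± 9.94 CPM (SD, n = 4), with a log2 fold change of 0.37 (SE 0.052, 95% confidence interval 0.26 to 0.48, adjusted p = 9.02e-04 in edgeR's test). It was called in all 8 fits that left out 1 brain. *Boc* was at 58.7, 53.1, 53.4 and 56.1 CPM in CDD and at 46.7, 51.9, 45.0 and 46.8 CPM in ND replicates 1 to 4. ND replicate 2 came close to the lowest CDD brain without reaching it. *Boc* (ENSMUSG00000022687, chromosome 16, 44305412 to 44379260) rose 1.16-fold, from 47.6 ± 2.98 to 55.3 ± 2.63 CPM (SD, n = 4), with a log2 fold change of 0.22 (SE 0.054, 95% confidence interval 0.10 to 0.33, adjusted p = 0.0191 in edgeR's test). This call too was lost without CDD replicate 1 (adjusted p = 0.0580 in edgeR's test), ND replicate 1 (0.0709), ND replicate 3 (0.0964) or ND replicate 4 (0.0737).

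*Smo*, the gene of the membrane protein that carries the signal into the cell, was at 90.4, 85.2, 90.7 and 89.6 CPM in CDD replicates 1 to 4 and at 74.4, 78.8, 72.1 and 71.8 CPM in the ND brains. It varied little within a diet, with a coefficient of variation of 2.85% in CDD and 4.37% in ND brains, and the diets did not overlap. *Smo* (ENSMUSG00000001761, chromosome 6, 29735502 to 29761364) rose 1.198-fold, from 74.3 ± 3.25 to 89.0 ± 2.54 CPM (SD, n = 4), with a log2 fold change of 0.26 (SE 0.044, 95% confidence interval 0.17 to 0.35, adjusted p = 0.00213 in edgeR's test). It was called whichever brain was left out.

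*Gli3*, the gene of the main Gli repressor, had the largest log2 fold change of the 9. It was at 79.6, 73.7, 75.2 and 87.9 CPM in CDD replicates 1 to 4 and at 55.7, 64.7, 55.6 and 56.2 CPM in the ND brains. CDD replicate 4 was the highest, and ND replicate 2 lay well above the other ND brains yet below every CDD brain. *Gli3* (ENSMUSG00000021318, chromosome 13, 15637820 to 15904611) rose 1.36-fold, from 58.1 ± 4.44 to 79.1 ± 6.37 CPM (SD, n = 4), with a log2 fold change of 0.45 (SE 0.060, 95% confidence interval 0.32 to 0.57, adjusted p = 7.78e-04 in edgeR's test). *Gli2*, whose product is the main Gli activator, was at 33.8, 31.6, 34.9 and 38.3 CPM in CDD and at 25.95, 29.1, 27.6 and 26.2 CPM in ND replicates 1 to 4. The order of the brains was like that of *Gli3* at its ends, with CDD replicate 4 highest and CDD replicate 2 lowest of the CDD brains. *Gli2* (ENSMUSG00000048402, chromosome 1, 118761862 to 118981349) rose 1.27-fold, from 27.2 ± 1.47 to 34.7 ± 2.81 CPM (SD, n = 4), with a log2 fold change of 0.35 (SE 0.065, 95% confidence interval 0.21 to 0.49, adjusted p = 0.00344 in edgeR's test). Both genes were called in all 8 fits that left out 1 brain, with log2 fold changes of 0.39 to 0.50 for *Gli3* and 0.30 to 0.39 for *Gli2*.

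*Gli1*, an activator and the target most often read as a measure of pathway activity, did not rise with them. It was at 9.48, 7.68, 9.20 and 6.88 CPM in CDD replicates 1 to 4 and at 9.51, 9.16, 9.28 and 8.87 CPM in the ND brains. The CDD brains fell on both sides of the lowest ND brain, and their coefficient of variation was 14.9% against 2.88% in ND brains. *Gli1* (ENSMUSG00000025407, chromosome 10, 127165751 to 127177843) averaged 8.31 ± 1.24 CPM (SD, n = 4) under CDD and 9.20 ± 0.265 CPM (SD, n = 4) under ND, for a log2 fold change of -0.15 (SE 0.10, 95% confidence interval -0.36 to 0.07, adjusted p = 0.413 in edgeR's test). The interval runs from a fold of 0.781 to 1.05, so a rise of the size seen in *Gli2* or *Gli3* lies outside it. CDD replicate 4, the brain with the lowest *Gli1*, had the highest *Gli2* and *Gli3*.

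*Ptch1*, the target that encodes the ligand's main receptor, was at 95.7, 107, 93.1 and 107 CPM in CDD replicates 1 to 4 and at 90.6, 91.7, 88.0 and 92.3 CPM in the ND brains. The diets did not overlap, but CDD replicate 3 was only just above the highest ND brain. *Ptch1* (ENSMUSG00000021466, chromosome 13, 63656142 to 63721412) averaged 100.6 ± 7.27 CPM (SD, n = 4) under CDD and 90.6 ± 1.92 CPM (SD, n = 4) under ND, for a log2 fold change of 0.15 (SE 0.049, 95% confidence interval 0.05 to 0.25, adjusted p = 0.0598 in edgeR's test). It was called in 4 of 18 alternatives, among them those without CDD replicate 3 (0.19, adjusted p = 0.0165 in edgeR's test), with no filter on low counts (adjusted p = 0.0291) and in DESeq2 (adjusted p = 0.0489). In the 14 others it was not, with an adjusted p of up to 0.212, without ND replicate 3.

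*Hhip*, whose product binds the ligand at the cell surface and takes it away from Patched 1, was the lowest of the 9 genes. It was at 3.11, 3.25, 2.97 and 2.84 CPM in CDD replicates 1 to 4 and at 3.34, 3.38, 3.12 and 2.99 CPM in the ND brains, with 94 to 128 counts per library. The ranges of the diets overlapped over most of their width. *Hhip* (ENSMUSG00000064325, chromosome 8, 80692480 to 80784635) averaged 3.04 ± 0.176 CPM (SD, n = 4) under CDD and 3.20 ± 0.183 CPM (SD, n = 4) under ND, for a log2 fold change of -0.08 (SE 0.13, 95% confidence interval -0.35 to 0.19, adjusted p = 0.782 in edgeR's test). At this depth a change within that interval could not be told from none.

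**Figure D2:**
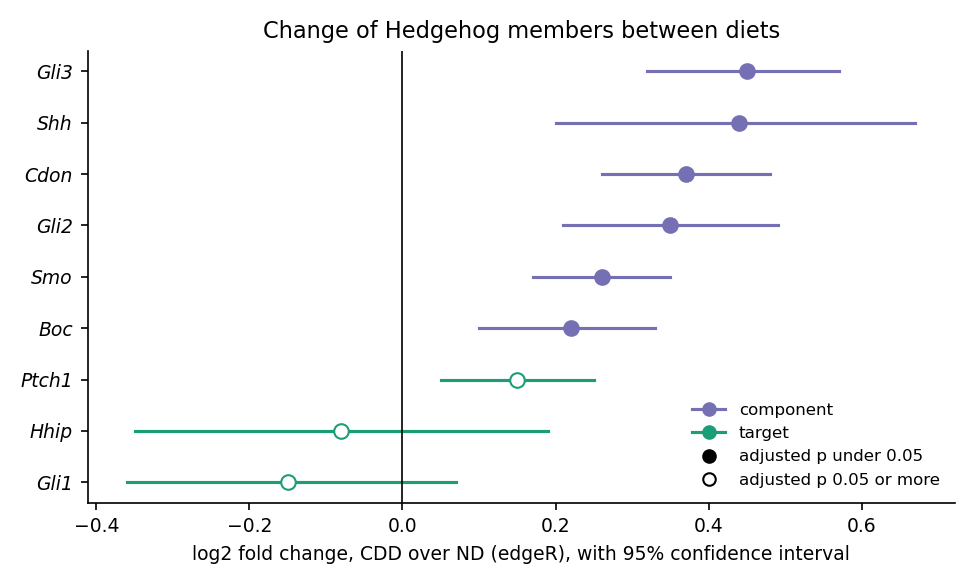
Log2 fold change (CDD over ND, edgeR) of each Hedgehog gene with its 95% confidence interval, components and targets in different colours. The 6 components lie between 0.22 and 0.45 and the 3 targets between -0.15 and 0.15, and the intervals of all 6 components and of the target *Ptch1* lie above 0.

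To set targets against components without the scaling of the library, a target's log2 CPM minus that of a component was taken within each brain. The length of the genes cancels when these differences are compared between diets. *Gli1* minus *Gli3* was -3.06, -3.25, -3.02 and -3.66 in CDD replicates 1 to 4 and -2.54, -2.81, -2.58 and -2.66 in the ND brains. All CDD brains were below all ND brains. The means were -3.25 ± 0.293 (SD, n = 4) and -2.65 ± 0.120 (SD, n = 4), a shift of -0.60 on the log2 scale (exact two-sided permutation test, p = 0.0286, adjusted p = 0.0381 over the 4 differences tested). This p is the smallest that 4 brains against 4 allow. *Gli1* minus *Gli2* was -1.83, -2.03, -1.92 and -2.47 in CDD and -1.44, -1.66, -1.57 and -1.56 in ND brains, again without overlap. Its means were -2.06 ± 0.284 and -1.56 ± 0.0901 (SD, n = 4), a shift of -0.51 (exact permutation test, p = 0.0286, adjusted p = 0.0381). Without CDD replicate 4 the shifts were -0.47 against *Gli3* and -0.37 against *Gli2*, with the same adjusted p.

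*Hhip* minus *Shh*, the ligand's inhibitor against the ligand, was -1.22, -1.19, -0.96 and -1.08 in CDD replicates 1 to 4 and -0.59, -0.64, -0.52 and -0.70 in the ND brains. The groups were again apart, with means of -1.11 ± 0.117 and -0.61 ± 0.077 (SD, n = 4) and a shift of -0.50 (exact permutation test, p = 0.0286, adjusted p = 0.0381). *Ptch1* minus *Smo*, the receptor against the protein it restrains, was 0.08, 0.33, 0.04 and 0.25 in CDD and 0.28, 0.22, 0.29 and 0.36 in ND brains. These ranges overlapped, with a shift of -0.11 (exact permutation test, p = 0.229, adjusted p = 0.229). Leaving out any ND brain raised the adjusted p of the 3 called differences above 0.05 (exact permutation test). It was 0.0762 for *Gli1* minus *Gli2* and 0.0571 for the others. Those others kept an unadjusted p of 0.0286, the smallest possible there, so their adjusted p rose only through the adjustment over the 4 differences. Without an ND brain the 3 shifts stayed between -0.66 and -0.47. Each shift combines the changes of 2 genes given above and is not a separate observation of them. The genes were chosen with earlier results of these brains known. The adjustment over the 4 differences does not cover that choice.

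**Figure D3:**
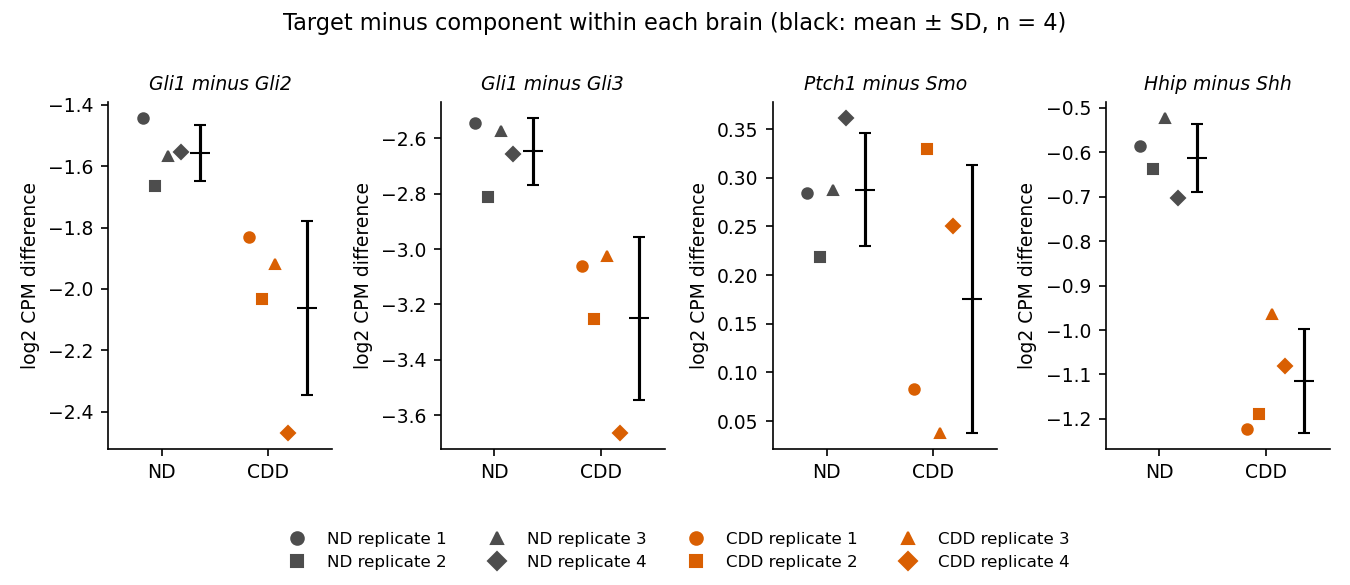
Log2 CPM of a target minus that of a component in each brain, for 4 pairs of genes, with the mean of each diet. CDD brains lie below ND brains in the pairs *Gli1* minus *Gli2*, *Gli1* minus *Gli3* and *Hhip* minus *Shh*, and the diets overlap in *Ptch1* minus *Smo*.

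Levels were compared between genes on the authors' FPKM scale, which divides by the listed gene length. Over the 8 brains the order from high to low was *Cdon*, *Smo*, *Boc*, *Gli3*, *Ptch1*, *Gli2*, *Shh*, *Gli1* and *Hhip*. In CDD brains the levels fell from 17.9 ± 1.32 FPKM for *Cdon* over 15.8 ± 0.449 for *Smo*, 12.4 ± 0.569 for *Boc*, 8.22 ± 0.693 for *Gli3*, 7.07 ± 0.537 for *Ptch1*, 5.03 ± 0.429 for *Gli2*, 2.34 ± 0.287 for *Shh* and 1.66 ± 0.240 for *Gli1* to 0.334 ± 0.0183 FPKM for *Hhip* (SD, n = 4). No neighbours in that order overlapped in CDD brains. In ND brains they were 13.8 ± 0.844 FPKM for *Cdon*, 13.1 ± 0.589 for *Smo*, 10.6 ± 0.677 for *Boc*, 6.35 ± 0.142 for *Ptch1*, 6.02 ± 0.466 for *Gli3*, 3.94 ± 0.213 for *Gli2*, 1.83 ± 0.0536 for *Gli1*, 1.72 ± 0.115 for *Shh* and 0.351 ± 0.0205 FPKM for *Hhip* (SD, n = 4). There the ranges of *Cdon* and *Smo*, of *Ptch1* and *Gli3*, and of *Gli1* and *Shh* overlapped across brains. Within each ND brain, *Cdon* lay above *Smo*. In ND replicate 2 alone, *Gli3* lay above *Ptch1* (6.71 against 6.43 FPKM) and *Shh* above *Gli1* (1.85 against 1.82 FPKM). The targets *Ptch1* and *Gli1* thus stood above *Gli3* and *Shh* in the mean of ND brains and below them in CDD brains.

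**Figure D4:**
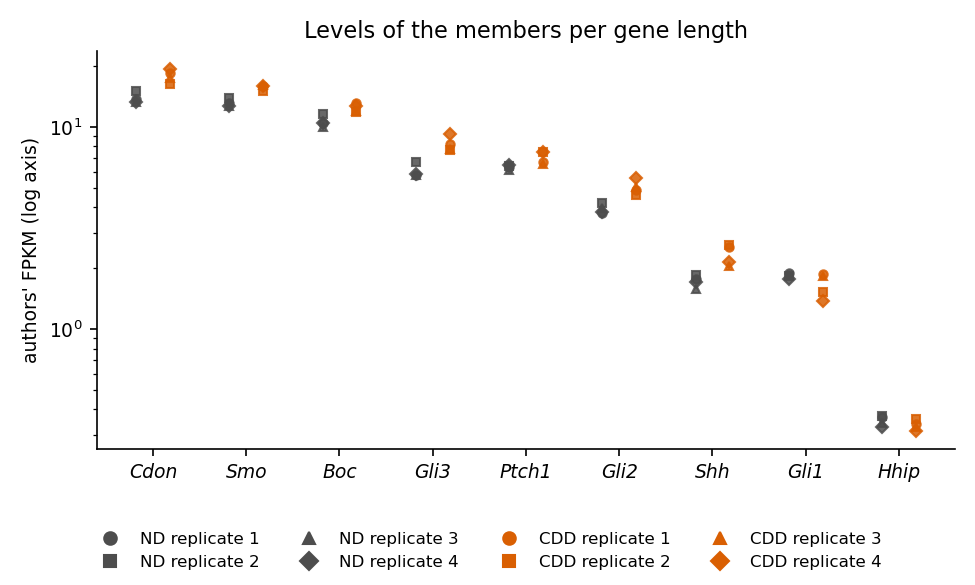
FPKM of the 9 genes in each CDD and ND brain on a log axis, in order of their mean over 8 brains. Levels run from *Cdon*, at 13.8 FPKM in ND and 17.9 in CDD brains, to *Hhip*, at 0.351 and 0.334.

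The other genes of the pathway were read from 5 lists by role, with 66 genes listed and 64 tested. Of these, 15.6% were called, against 8.83% of all genes tested. Under CDD 8 rose and 2 fell, with a median log2 fold change of 0.03 over the lists. Of 8 genes for the other ligands and for ligand release, 0 were called by edgeR. An unadjusted p under 0.05 was found for 0 of the 8, against 4627 of all 19367 genes tested. The smallest p in that list was that of *Dhh* (Desert hedgehog), at 0.476 ± 0.0599 CPM in CDD and 0.302 ± 0.0542 CPM in ND brains (SD, n = 4), with a log2 fold change of 0.65 (adjusted p = 0.220). Among 3 further receptors, *Gas1* and *Lrp2* rose. *Gas1*, a coreceptor like *Cdon* and *Boc*, was at 48.5 ± 2.02 against 41.2 ± 2.21 CPM (SD, n = 4; log2 fold change 0.24, adjusted p = 0.0123), a call lost without ND replicate 4 (adjusted p = 0.0660 in edgeR's test). *Lrp2*, an endocytic receptor that binds Shh, was at 17.6 ± 2.38 against 13.2 ± 1.03 CPM (SD, n = 4; log2 fold change 0.42, adjusted p = 0.00925) and was called whichever brain was left out.

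Of 24 genes between Smoothened and the Gli proteins, 1 was higher and 1 lower (8.33%, near the 8.83% called over all genes), with a median log2 fold change of 0.02. *Efcab7*, which anchors a complex at the base of the cilium, was at 8.01 ± 0.655 against 6.48 ± 0.0566 CPM (SD, n = 4; log2 fold change 0.30, adjusted p = 0.0493), and *Grk2*, a kinase that phosphorylates Smoothened, was at 129.8 ± 2.99 against 142 ± 2.40 CPM (SD, n = 4; -0.13, adjusted p = 0.0351). Each was called in 2 of the 8 fits that left out 1 brain. *Sufu*, whose product holds the Gli proteins in the cytoplasm, was at 64.9 ± 0.934 against 62.3 ± 0.810 CPM (SD, n = 4; 0.06, adjusted p = 0.427). Of 17 genes of the primary cilium, *Ift80*, of the intraflagellar transport machinery, was the 1 called, higher with 0.22 (adjusted p = 0.0361), again in 2 of 8 such fits, and the median was 0.05. This share, 5.88%, was below that over all genes, so neither list stood apart by its count.

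Targets beyond the 3 named above were mixed, with 4 higher and 1 lower of 12 tested and a median log2 fold change of 0.13. The share called was 41.7%, against 8.83% of all genes tested. *Ccnd1* and *Ccnd2*, the genes of D-type cyclins that drive entry into the cell cycle, were at 68.0 ± 4.64 against 48.0 ± 3.12 CPM and at 695 ± 98.6 against 528 ± 30.4 CPM (SD, n = 4), with log2 fold changes of 0.50 (adjusted p = 4.03e-04) and 0.40 (adjusted p = 0.0101), and both were called in all 8 fits without 1 brain. *Sfrp1*, which encodes a secreted Wnt inhibitor, rose by 0.23 (adjusted p = 0.0113), a call lost without ND replicate 1, 3 or 4 (adjusted p of 0.0539, 0.0719 and 0.0506). *Nkx6-2*, a ventral patterning factor, was at 3.37 ± 1.00 against 1.92 ± 0.225 CPM (SD, n = 4; 0.81, adjusted p = 0.0140), with its highest value, 4.64 CPM, in CDD replicate 2, and was lost without ND replicate 3 (adjusted p = 0.0618) or 4 (0.0557). *Mycn*, a proliferation factor of neural progenitors, fell from 92.1 ± 1.21 to 80.8 ± 6.01 CPM (SD, n = 4; -0.19, adjusted p = 0.0224), a call lost without CDD replicate 2 or without ND replicate 1, 3 or 4 (adjusted p of 0.0646 to 0.0874 in edgeR's test). *Olig2*, *Nkx2-2*, *Foxa2* and *Nkx6-1*, patterning factors of the ventral neural tube, were not called. Their log2 fold changes were -0.08, 0.03, 0.19 (adjusted p = 0.489 in edgeR's test) and 0.73 (adjusted p = 0.290). *Nkx6-1* was at 4.38 to 11.5 CPM in CDD and 3.48 to 4.19 CPM in ND brains, so the diets did not overlap. Its highest value, from 396 counts, was again in CDD replicate 2. The CDD mean of *Nkx6-1* was 6.21 ± 3.51 CPM and its ND mean 3.74 ± 0.318 CPM (SD, n = 4).

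**Figure D5:**
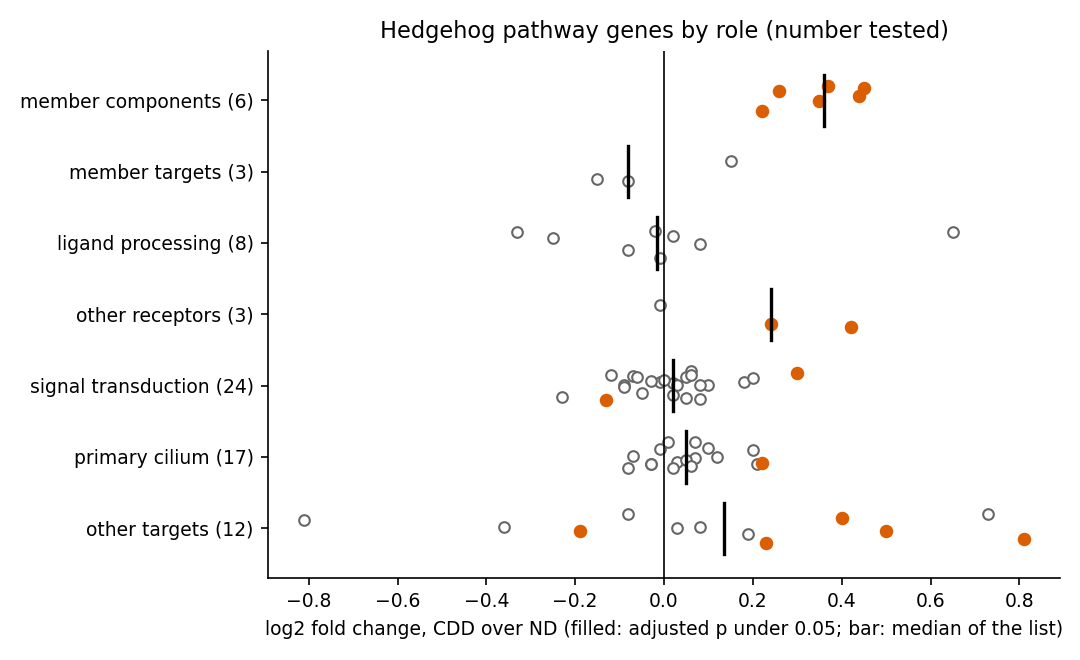
Log2 fold change (CDD over ND, edgeR) of every tested gene in the 5 pathway lists, beside the 9 Hedgehog genes, with called genes in filled symbols. Called genes of the other lists number 8 above 0 and 2 below 0, and the list medians lie between -0.01 and 0.24.

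Markers of cell types moved with the diet alongside the components. Of 10 progenitor genes, 5 rose and 0 fell (median log2 fold change 0.21), and their summed level was 1643.5 to 1819.3 CPM in CDD and 1492 to 1586.1 CPM in ND brains. Of 9 genes of dividing cells, 7 rose and 0 fell (median 0.37), with sums of 894 to 1113.1 CPM and 703 to 811 CPM. Neither pair of ranges overlapped. For 10 genes of postmitotic neurons, 0 rose and 2 fell (*Snap25* and *Gap43*). Their sums overlapped (6721.9 to 7491.9 and 6910.7 to 7187.6 CPM). The share called was 50.0% (progenitors) and 77.8% (dividing cells), against 8.83% of all genes tested. The share of neuron genes called, 2 of 10, was also above 8.83%. In whole brains, fewer cells of a type and less RNA per cell cannot be told apart, and the part that the progenitor and dividing-cell genes have in the rise of the components was not tested.

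Among genes listed as markers of regions that make or receive Shh, all 8 of the floor plate list had a log2 fold change above 0 (0.19 to 0.68, median 0.33). Of these, 1 was called (*Lmx1a*, higher) and 5 had an unadjusted p under 0.05 in edgeR's test. Over all 19367 genes tested, 9507 had a log2 fold change above 0 and 4627 had an unadjusted p under 0.05. *Foxa2*, of the floor plate list, was at 0.19 and not called (adjusted p = 0.489 in edgeR's test). The 8 genes summed to 189 to 273 CPM in CDD and 180 to 190 CPM in ND brains. Which cells of the whole brain made these transcripts was not tested. Of 7 ventral forebrain genes, 3 rose (*Nkx2-1*, *Lhx8*, *Sim1*) and 1 fell (*Lhx6*), with sums of 126 to 154 CPM in CDD and 137 to 148 CPM in ND brains. Of 8 endothelial and mural genes, 0 rose and 2 fell (*Cldn5* and *Rgs5*), and their sums of 346 to 357 CPM in CDD brains lay below the 372 to 394 CPM of ND brains. Of 7 genes of meningeal fibroblasts, 1 rose and 3 fell (456 to 507 against 484 to 580 CPM), and of 7 choroid plexus genes 1 rose and 0 fell (234 to 547 against 330 to 368 CPM). The share called was 12.5% (floor plate), 57.1% (ventral forebrain), 25.0% (endothelial and mural), 57.1% (meningeal fibroblasts) and 14.3% (choroid plexus), against 8.83% of all genes tested. No gene of these lists was at 0 in any brain, and their part in the results was not tested.

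Genes whose profile over the 8 brains was most like that of *Shh*, *Ptch1* and *Gli1* were found among 15887 genes whose mean reached 1 CPM. Likeness was the root mean square difference of log2 CPM after centring each gene on its mean, so smaller is more alike. For *Shh* these were *Ebf2* (0.0671), *Robo3* (0.0772) and *9430041J12Rik* (0.0845), for *Ptch1* *Blmh* (0.0171) and *Ssr3* (0.019), and for *Gli1* *Ppan* (0.0226), *Ttc4* (0.029) and *Ercc1* (0.034). None of them belongs to the 9 Hedgehog genes or to the pathway lists.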

How the data were processed

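RNA was sequenced from whole WT brains of 4 CDD and 4 ND embryos. The submitters' processing notes name HISAT2 2.0.5, featureCounts 1.5.0-p3 and DESeq2 1.20.0. The genome build and whether counting used strand are not given in the sources used here, and coordinates are those of the authors' table. The authors deposited whole-number counts per gene, counts divided by size factors (a normalized signal, not used in any test), FPKM computed by them from those scaled counts and the gene length, and columns of their own comparison (fold changes and p-values), which were not used. Shorter tables of rows picked by that comparison were not used either.

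Counts of 33971 genes were filtered (filterByExpr), scaled by TMM and fitted with diet alone by edgeR 4.0.16 (robust quasi-likelihood, R 4.3.3), with Benjamini-Hochberg adjustment over 19367 genes, threshold 0.05. The fit was tested on simulated data. Log2 CPM used a prior count of 2. Alternatives were DESeq2 1.42.0, limma 3.58.1 (voom, and log2 FPKM with pseudocounts of 1 and 0.1), other scalings and filters, a gene length offset, a replicate block and the omission of each brain. The genes named were the 9 Hedgehog genes, every called gene of each pathway list (the smallest p where none was called), and the 3 nearest profiles, of which 1 is not reported here. *Sufu*, *Olig2*, *Nkx2-2*, *Nkx6-1*, *Foxa2* and the called marker genes were named after their values were seen. The 9 genes and all lists were chosen with earlier results of these data known. *Hand2* was not found under that symbol, and *Nkx2-9* did not pass the filter. The 8 libraries limit precision to the counts given beside each low gene.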

Additional observations from a re-analysis of the deposited data

Results flagged for a closer look

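*Gli3* in ND replicate 2, at 64.7 CPM, was far from the other ND brains, which lay between 55.6 and 56.2 CPM. Its gap to the nearest brain was 0.933 of the range of the 4 brains. Without that brain the log2 fold change of *Gli3* was 0.50 (adjusted p = 5.92e-04 in edgeR's test), against 0.45 with it. The same brain was the highest ND brain for 7 of the 9 Hedgehog genes.

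*Ccnd2*, one of the cyclin genes among the other targets, was at 842 CPM in CDD replicate 4 and at 631 to 656 CPM in the other CDD brains. The 10 Hox genes of caudal hindbrain and spinal cord summed to 109.5 CPM in CDD replicate 2 and to at most 0.453 CPM in the other CDD brains. That gap was 0.996 of the range, and *Hoxa5* had 1142 counts in CDD replicate 2 and 0 in the 7 other brains. In all, 64 groups of 4 brains were examined in this way, and 3 held such a brain, while chance alone gives about 3.2. This number of groups does not show whether any 1 of the 3 brains stood apart by chance. The cause was not tested for any of them.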

How the results depend on the processing

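All 9 log2 fold changes kept their sign under the 18 alternatives run for each. *Gli3*, *Cdon*, *Smo* and *Gli2* were called in all 18, and *Gli1* and *Hhip* in none. Both fits of the authors' FPKM called 4 components (*Shh* and *Boc* were lost) and 2 pathway genes instead of 10, with 519 (pseudocount 1) and 527 (pseudocount 0.1) of all genes instead of 1710. The number of targets called rose from 0 to 1, *Ptch1*, with no filter, in DESeq2 and with the replicate block. Leaving out 1 brain gave 471 to 2495 genes called (688 without ND replicate 1, 471 without ND replicate 3, 615 without ND replicate 4), 4 to 6 components, 0 to 1 targets (1 without CDD replicate 3), 4 to 7 of the 9 genes, and 3 to 13 pathway genes (5, 4 and 3 without ND replicates 1, 3 and 4). The cause was not tested. In these fits *Gli1* minus *Gli2* ran from -0.58 to -0.37, *Gli1* minus *Gli3* from -0.68 to -0.47 and *Hhip* minus *Shh* from -0.55 to -0.47. The order of the levels over 8 brains was the same per kilobase of CPM and without any 1 brain.

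The labels number the brains of each diet 1 to 4. Deviations of same-numbered brains from their diet means correlated at 0.105, -0.133, 0.117 and 0.232. The same-numbered ND brain was the best match for CDD replicates 1, 3 and 4, while CDD replicate 2 correlated best with ND replicate 4 (0.214). The labels do not say that the numbers pair brains, so the main fit did not take them to, and the replicate block was an alternative. With the replicate block 1812 genes were called, 1570 of them shared with the fit without it, along with 6 components, 1 target (*Ptch1*, 0.15, adjusted p = 0.0467 in edgeR's test) and 8 pathway genes. *Shh* and *Hhip* rest on the fewest counts, so their changes are the least precise of the 9.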

Other observations

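Some of the 9 genes share bases with other annotated genes. The span of *Gli1* overlapped that of *Arhgap9*, on the opposite strand, by 62 bases, where *Arhgap9* had 13 to 25 counts per library. The span of *Shh* held the antisense lncRNA *9530036O11Rik* (4 to 8 counts), and that of *Gli3* overlapped the opposite-strand lncRNA *Gm6556* (34 to 79 counts). Whether reads were counted by strand is not given in the sources used here, so reads of such partners may not be told apart in the shared bases.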
